A study of Mus musculus with 2 samples.

Results

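The annotated single-exon models of the mouse adrenal gland are transcripts that GENCODE M21 lists with 1 exon and that received at least 1 long read in either of 2 libraries. A model was a member if its class was known, its exon count was 1 and it did not lie on the mitochondrial chromosome. The rule found 2159 models in 2124 genes, of 22139 annotated models with a read in the series, beside 19964 nuclear models of 2 or more exons. A gene was called intronless when none of its annotated transcripts had a second exon, which split the members into 1325 models of intronless genes and 834 models of spliced genes. The series holds 1 group, biological replicates 2 and 1 of total RNA from wild-type C57BL/6J adrenal gland obtained from The Jackson Laboratory. Separate biosamples under 1 donor record supplied them. A description names females, while the sex field reads not collected and the age is unknown. Long-read RNA-seq reads a cDNA molecule over its length, and each read was assigned to a transcript model, so the values are whole read counts. There were 587861 reads in replicate 2 and 810239 in replicate 1. A count of 0 allows up to 3 reads, a level of 5.10 CPM (counts scaled to library depth) in replicate 2 and 3.70 CPM in replicate 1. With 1 library a side no test was made. Folds are replicate 2 over replicate 1 on library sizes scaled by TMM (a trimmed mean of log ratios), with 95% binomial intervals that cover counting error only. All 5 cortex markers (Star, Cyp11a1, Cyp21a1, Cyp11b1, Nr5a1) and all 5 medulla markers (Th, Dbh, Chga, Chgb, Pnmt) had at least 38 reads in each library, at unequal levels. The level was higher in replicate 2 for 3 of 5 cortex markers and 2 of 5 medulla markers. The summed cortex level was 85981 CPM in replicate 2 and 63334 CPM in replicate 1, and the summed medulla level 8495 and 6193 CPM. The widest gaps were in Dbh, with 347 CPM in replicate 2 and 46.9 CPM in replicate 1, and Nr5a1, with 1878 and 301 CPM, against Pnmt with 81.7 and 392 CPM. The part of these markers in the results was not tested.

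Most mammalian genes are split into exons, and splicing joins these in the transcript. Intronless genes skip that step. Some are ancient and fast-acting, such as the AP-1 factor Jun, the inducible HSP70 genes and the replication-dependent histones, whose messages end in a stem-loop and usually carry no poly(A) tail. Others are retrocopies, made when a spliced message was copied back into the genome. These include processed pseudogenes, which are abundant for ribosomal protein genes and for the glycolytic enzyme Gapdh. Small RNA genes, such as microRNA hairpins and small nucleolar RNAs, often lie inside a longer host gene, so that a read of the host can cover them.

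Sequences of the members on which the results turn follow. The first set shows how little separates a retrocopy from its spliced parent: windows of 60 bases, with the base that differs in capitals. The windows are Gm12033 at chr11:20335481-20335540 (minus strand) beside Gapdh transcript positions 566 to 625, and Gm10243 at chr6:48523643-48523702 (plus strand) beside Rpl35a transcript positions 216 to 275 (mm10, transcripts of GENCODE M21).
Gm12033: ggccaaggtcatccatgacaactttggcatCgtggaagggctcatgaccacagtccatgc
Gapdh: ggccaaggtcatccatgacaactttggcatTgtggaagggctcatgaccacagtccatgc
Gm10243: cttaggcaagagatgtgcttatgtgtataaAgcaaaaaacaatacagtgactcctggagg
Rpl35a: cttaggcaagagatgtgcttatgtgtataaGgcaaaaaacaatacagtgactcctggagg
Over its full length Gm12033 differed from Gapdh in 1 column of the alignment, and Gm10243 differed from Rpl35a in 1 of 333.

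The second set shows small RNA models that took reads in 1 library far above the other. Gm28006, a misc_RNA of 122 nt, lies on the minus strand of chr19:5844916-5845037 inside an exon of Neat1. For 2 microRNAs with more reads in replicate 2, the entries are given as mature sequences from RefSeq (GRCm38.p6) with the seed, bases 2 to 8, in capitals. Their seeds differ. Mir5114 lies in an exon of Scd2 and Mir1902 in an exon of Hipk3.
Gm28006: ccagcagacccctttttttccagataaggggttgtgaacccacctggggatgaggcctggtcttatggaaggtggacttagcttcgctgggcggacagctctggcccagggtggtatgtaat
mmu-miR-5114: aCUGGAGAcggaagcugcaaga
mmu-miR-1902: aGAGGUGCaguaggcaugacuu

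The third set gives promoters, 250 bases before to 50 bases after the start in RefSeq (GRCm38.p6), of the 2 intronless coding genes with the most reads in replicate 2. Capitals mark any of 5 motifs searched on both strands: the TATA box as TATAAA, the CCAAT box by its name, the cyclic AMP response element as TGACGTCA, a heat shock element core as GAANNTTC and the GC box as GGGCGG. Hspa1a is at chr17:34972107-34972406 and Jun at chr4:95052173-95052472, both on the minus strand.
Hspa1a: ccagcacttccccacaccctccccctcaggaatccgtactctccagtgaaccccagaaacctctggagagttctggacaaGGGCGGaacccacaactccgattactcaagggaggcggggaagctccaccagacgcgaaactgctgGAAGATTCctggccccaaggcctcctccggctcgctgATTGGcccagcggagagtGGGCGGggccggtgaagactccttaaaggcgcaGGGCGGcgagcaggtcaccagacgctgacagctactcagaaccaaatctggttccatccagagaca
Jun: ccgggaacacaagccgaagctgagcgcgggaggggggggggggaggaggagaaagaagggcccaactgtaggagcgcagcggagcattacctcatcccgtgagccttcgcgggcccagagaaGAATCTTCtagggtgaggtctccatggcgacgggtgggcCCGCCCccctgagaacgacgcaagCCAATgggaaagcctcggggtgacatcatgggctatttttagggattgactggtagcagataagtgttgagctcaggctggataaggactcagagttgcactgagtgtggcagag
Both held the CCAAT box, the heat shock element core and the GC box on 1 strand or the other, and these windows held neither the TATA box nor the cyclic AMP response element. Over the 160 of 251 intronless coding models with a matched promoter, TATAAA was in 7.5%, CCAAT in 39.4%, TGACGTCA in 4.38%, GAANNTTC in 7.5% and GGGCGG in 62.5%. Among all 32851 promoters of the table, the shares were 13.6% for TATAAA, 37.4% for CCAAT, 1.79% for TGACGTCA, 7.86% for GAANNTTC and 35.7% for GGGCGG. A match describes letters in a window and is not evidence of binding.

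The single-exon models took 1.58% of all reads in replicate 2 (95% Clopper-Pearson interval 1.55 to 1.61) and 3.41% in replicate 1 (3.37 to 3.45), a mean of 2.49 ± 1.30% (SD, n = 2). Intronless genes held 1.23% of reads in replicate 2 and 2.75% in replicate 1. Spliced genes held 0.345% and 0.657% on their single-exon models in replicates 2 and 1. Reads were found on 1225 members in replicate 2 and on 1631 in replicate 1, with 697 seen in both. A single read over both libraries was all that 949 members had, and 367 members reached 10 reads. Lengths ran from 38 to 93092 nt with a median of 1449 nt, and the longest was Kcnq1ot1, the antisense RNA of an imprinted domain.

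By class, the summed share of intronless coding models, without near-copies of spliced genes (defined below), was nearly the same in both libraries. The shares of retrocopies and small RNAs were not. The 251 intronless coding models held 0.593% of reads in replicate 2 (0.574 to 0.613) and 0.567% in replicate 1 (0.551 to 0.584). With the 33 coding near-copies, the 284 intronless coding models held 3636 reads in replicate 2 and 6846 in replicate 1. Opposite shifts by length lie within the sum of the 251. Among those with at least 10 reads, models under 2000 nt held 0.0600% in replicate 2 and 0.319% in replicate 1. Models of 2000 nt or more held 0.506% and 0.224%. The 512 copies and pseudogenes of intronless genes held 0.212% in replicate 2 and 2.04% in replicate 1. The 204 small RNA models held 0.285% in replicate 2 and 0.0304% in replicate 1. The 356 noncoding models of intronless genes held 0.142% in replicate 2 and 0.115% in replicate 1. In spliced genes, 105 coding models held 0.129% and 0.161%, 639 retained-intron models 0.143% and 0.148%, and 89 other models 0.0728% and 0.347% in replicates 2 and 1. Of the reads on these 89, Malat1 alone had 195 of 428 in replicate 2 and 1916 of 2814 in replicate 1. In 4 classes the libraries lay within 0.04 percentage points of each other, and the widest gap was in the copies. The remaining 3 models were immunoglobulin segments, with 1 read in replicate 2 and 4 in replicate 1.

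**Figure D1:**
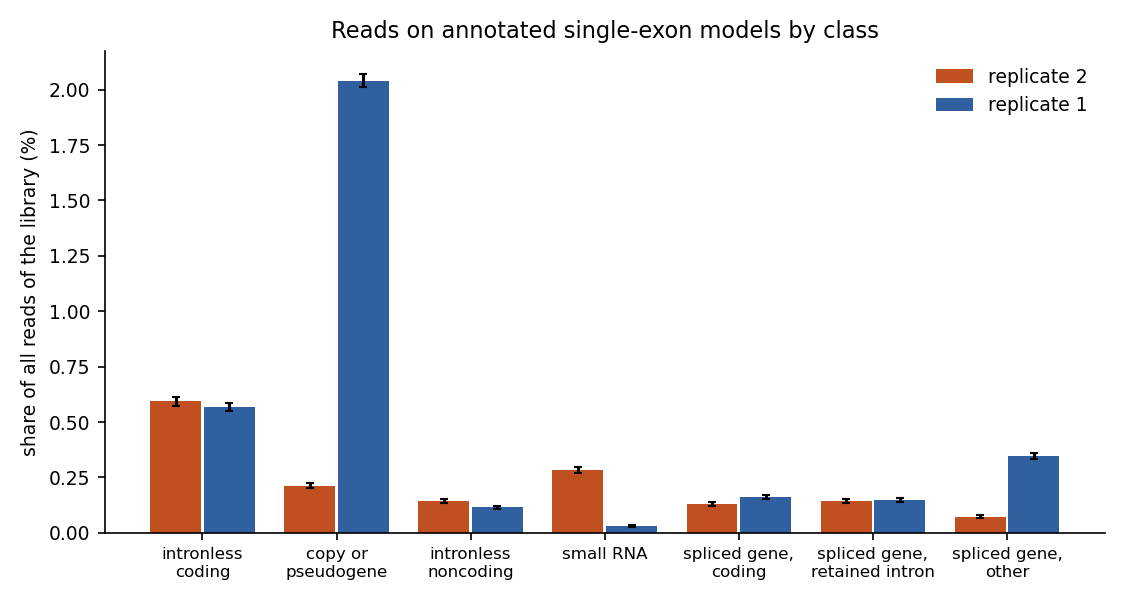
Share of all reads of a library, in percent, on annotated single-exon models of 7 classes, with replicate 2 left of replicate 1 and 95% Clopper-Pearson intervals as error bars. Copies and pseudogenes held 0.212% in replicate 2 and 2.04% in replicate 1, while intronless coding models held 0.593% and 0.567%.

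Most annotated single-exon models had no read at this depth. Reads fell on 2159 of 26771 annotated models of this kind (8.06%), beside 19964 of 115054 models of 2 or more exons (17.4%). Among intronless genes the share with reads was 284 of 1389 coding models (20.4%), 48 of 344 lincRNA models (13.95%), 435 of 8989 processed pseudogenes (4.84%), 69 of 1507 small nucleolar RNAs (4.58%) and 87 of 2207 microRNAs (3.94%). Retained-intron models of spliced genes were seen more often, with 639 of 2333 (27.4%). Of 1239 olfactory receptor genes with a single-exon model, the odorant receptor family of the nasal epithelium, 1 gene had reads, 1 in replicate 2 and 0 in replicate 1.

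Among the 367 members with at least 10 reads, 74 (20.2%) were more than 2-fold higher in replicate 2 and 231 (62.9%) more than 2-fold higher in replicate 1. Among all 8280 annotated models with at least 10 reads the shares were 38.5% and 42.1%, so the members' count higher in replicate 1 lies above the background and their count higher in replicate 2 below it. The median log2 ratio of the members was -2.41, against -0.15 over all models and -0.01 over models of 2 or more exons. Model length moved with the ratio in both kinds of model. Under 500 nt the median log2 ratio was -3.73 for single-exon models and -4.56 for models of 2 or more exons, and between 3000 and 4000 nt it was 0.98 and 2.20. After a smooth length trend over all models was removed, 117 of the 367 members lay past 2-fold higher in replicate 2 and 94 past it in replicate 1, and their median was 0.30. With the trend removed, 24.4% of the 8280 annotated models passed 2-fold toward replicate 2 and 26.0% toward replicate 1. The log2 ratio of a model after this step is called length-adjusted here. The 367 members had a median length of 1273 nt, against 2525 nt for models of 2 or more exons.

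**Figure D2:**
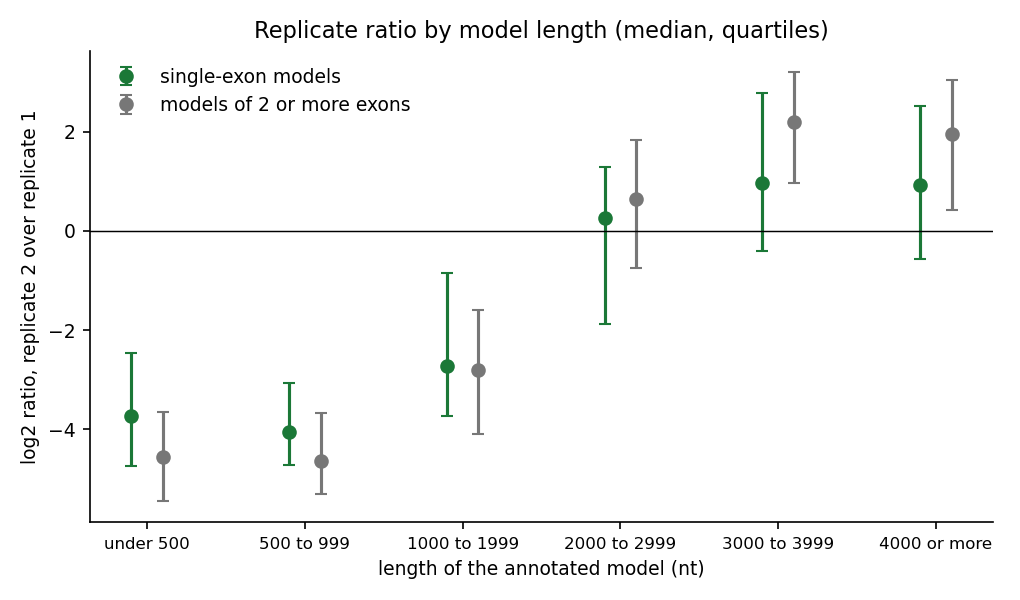
Median log2 ratio of replicate 2 over replicate 1 with quartiles as bars, by length of the annotated model, for single-exon models and models of 2 or more exons with at least 10 reads. Both kinds lie below 0 under 2000 nt and above 0 from 2000 nt, and from 3000 nt the single-exon medians of 0.98 and 0.92 lie below the 2.20 and 1.95 of the other models.

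**Figure D3:**
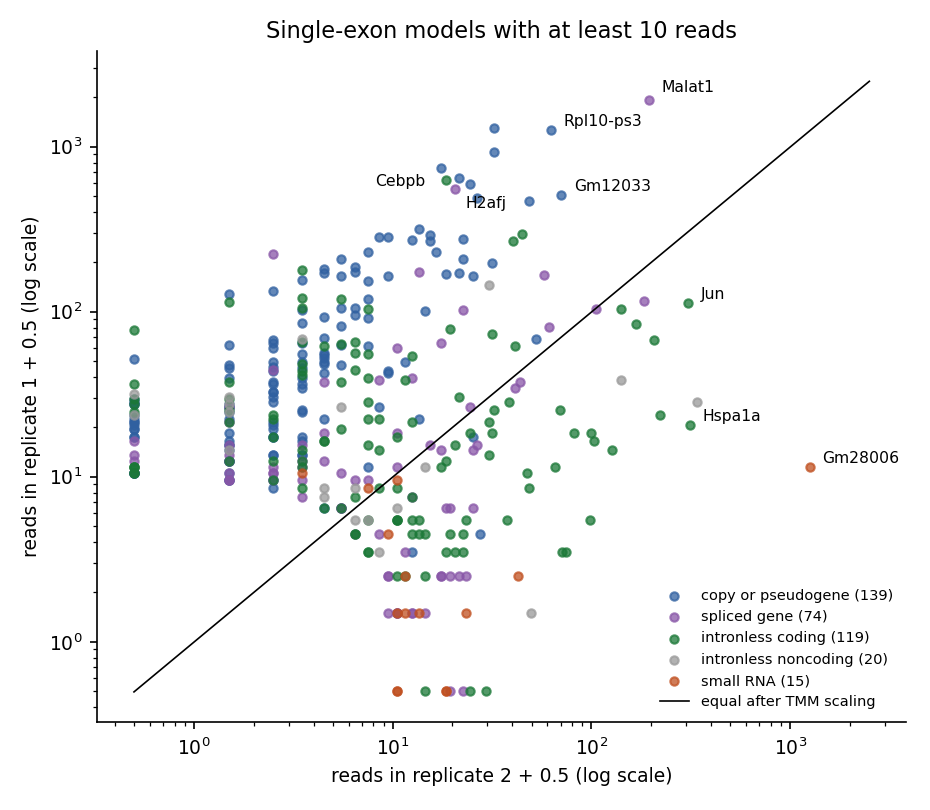
Reads of the 367 single-exon models with at least 10 reads, in replicate 2 on the x axis and replicate 1 on the y axis (both plus 0.5, log scales), coloured by class, with the line of equal TMM-scaled counts. Copies and pseudogenes lie above the line apart from a few models, small RNAs mostly below it, and Gm28006 farthest below it with 1252 and 11 reads.

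The intronless coding genes with the highest mean level over both libraries were Cebpb, Jun and Hspa1a. The leaders are given in order of mean level, an order taken after their values were seen. Cebpb, a C/EBP transcription factor of metabolic and inflammatory genes (ENSMUSG00000056501.3, chr2:167688915-167690418, 1504 nt), had 18 reads in replicate 2 and 625 in replicate 1, a mean of 401 ± 524 CPM (SD, n = 2). That was 34.9-fold lower in replicate 2 (21.9 to 59.3), a log2 ratio of -5.09, against a length-adjusted -2.21. Jun (ENSMUSG00000052684.4, chr4:95049034-95052222, 3189 nt) had 305 reads in replicate 2 and 112 in replicate 1, 2.71-fold higher in replicate 2 (2.17 to 3.39). Its length-adjusted log2 ratio was -0.61, in the other direction. Hspa1a, the heat-inducible HSP70 chaperone (ENSMUSG00000091971.3, chr17:34969190-34972156, 2967 nt), had 314 reads in replicate 2 and 20 in replicate 1, 15.6-fold higher in replicate 2 (9.94 to 25.9), a log2 ratio of 3.93, against a length-adjusted 2.17. Its neighbour Hspa1b had 1 read in replicate 2 and 0 in replicate 1. The pair is 99.2% identical over 2201 nt, so the split of reads between them is uncertain.

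Ndn, the imprinted growth regulator necdin, had 44 reads in replicate 2 and 293 in replicate 1, 6.70-fold lower in replicate 2 (4.87 to 9.42), a log2 ratio of -2.73, against a length-adjusted -4.99. Mgat2, an N-glycan branching enzyme, had 205 reads in replicate 2 and 67 in replicate 1. Irf2bpl, a transcriptional regulator, had 222 reads in replicate 2 and 23 in replicate 1. Pcbp1, a poly(C)-binding protein whose gene is itself a retrocopy, had 40 reads in replicate 2 and 269 in replicate 1. Tspyl1, a nucleosome assembly protein relative, had 167 and 84 reads in replicates 2 and 1, and Sephs2, the selenophosphate synthetase needed for selenoproteins, 140 and 103. The leading intronless coding genes were thus read in both libraries, in unequal order. Split by length, the 45 intronless coding models under 2000 nt with at least 10 reads held 1 model higher in replicate 2 and 40 higher in replicate 1, with a median log2 of -3.34. The 74 such models of 2000 nt or more held 35 higher in replicate 2 and 16 higher in replicate 1, with a median of 0.92.

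The 8 largest folds in each direction were taken among members with at least 30 reads. Besides Gm28006, Mir5114, Hspa1a, AY036118 and a model of 2900097C17Rik, the models highest in replicate 2 were Fam43a with 74 and 3 reads, Magee1 with 71 and 3, and Cstf2t, a retrocopy of a polyadenylation factor, with 98 and 5 reads in replicates 2 and 1. These 3 are 3075, 3550 and 4233 nt long, and their length-adjusted log2 ratios were 2.49, 2.10 and 2.01. Those highest in replicate 1 included Imp3, a U3 small nucleolar ribonucleoprotein component, with 0 reads in replicate 2 and 77 in replicate 1, at least 25.8-fold lower in replicate 2 with 3 reads in place of 0. Fam122a had 0 reads in replicate 2 and 36 in replicate 1, 2310039H08Rik 1 and 114, and the noncoding 2010320M18Rik 0 and 31. These 4 are between 762 and 1009 nt long, with length-adjusted log2 ratios of -2.96 for Imp3 and -1.80 to -1.79 for the others. The 4 others, Rpl35a-ps2 with 0 and 51 reads, Rpl37rt with 2 and 224, Sap18b with 1 and 128 and Gm12481 with 2 and 133, are near-copies of Rpl35a, Rpl37, Sap18 and Serf2, with length-adjusted log2 ratios between -2.11 and -1.19.

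Of 15 immediate early and AP-1 or C/EBP genes, 11 have a single-exon model and 10 had reads. Of 9 with at least 10 reads, 2 were higher in replicate 2 and 4 in replicate 1, beside 38.5% and 42.1% of all annotated models. The median log2 ratio was 0.44. Rhob, a small GTPase, had 81 reads in replicate 2 and 18 in replicate 1. Junb had 184 and 116 and Ier2 19 and 78, while Jund had 3 and 43 in replicates 2 and 1. The length-adjusted log2 ratio was 1.89 for Rhob, 2.36 for Junb, 0.79 for Ier2 and -1.39 for Jund. Cebpd had 3 reads in replicate 2 and 15 in replicate 1, and Cebpa, which marks adipocytes and hepatocytes among other cells, 6 and 4. Cebpd was at a length-adjusted -4.41 and Cebpa at -0.52, and Ier5, with 7 and 5 reads in replicates 2 and 1, at -1.67. In bulk tissue fewer cells of a type and less RNA per cell cannot be told apart.

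Of 26 G protein coupled receptor genes with a single-exon model, 11 had reads and 4 had at least 10. All 4 were past 2-fold higher in replicate 2, beside 38.5% of all annotated models. Fzd1 had 22 and 4 reads, Fzd7 14 and 4 and Fzd9 7 and 3 in replicates 2 and 1. These are receptors of Wnt ligands. The counting interval of the Fzd9 fold, 0.530 to 13.9, includes 1. Length-adjusted log2 ratios were 0.16 for Fzd1, -0.40 for Fzd7 and 1.03 for Fzd9. Of 27 SOX, FOX and POU factors with such a model, 9 had reads and 3 had at least 10. Among these, Foxc2 had 19 and 4 reads and Sox4 5 and 19 in replicates 2 and 1, with length-adjusted log2 ratios of 0.83 and -3.84. Of 22 protocadherin beta genes, cell adhesion receptors of neurons, 15 had reads, 60 in replicate 2 and 9 in replicate 1. Pcdhb20 had 14 reads in replicate 2 and 0 in replicate 1, and Pcdhb22 had 10 and 1, at length-adjusted log2 ratios of 2.60 and 1.11. The 2 connexin genes on the list with a single-exon model had no read, and the 1 such signalling adaptor, Kctd12, had 2 reads in replicate 2 and 3 in replicate 1.

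Replication histones had reads on 19 of 66 genes with a single-exon model, 60 in replicate 2 and 292 in replicate 1. Of 7 with at least 10 reads, 5 were higher in replicate 1, beside 42.1% of all annotated models. The others were within 2-fold, and the median log2 of the 7 was -3.07. Hist2h2aa1 had 3 reads in replicate 2 and 105 in replicate 1, and Hist2h2aa2 had 7 and 103. These H2A genes are identical over 528 nt, so their split is uncertain. Hist1h2ap had 0 reads in replicate 2 and 24 in replicate 1, Hist1h4h 1 and 12 and Hist1h2ao 2 and 9, all of them under 500 nt long. Hist1h1c, a linker histone gene of 1560 nt, had 31 and 18 reads in replicates 2 and 1, and Hist2h2be, of 2620 nt, 5 and 6. The listed variant and linker histone genes, which count Hist2h2be again and leave out Hist1h1c, held 69 reads in replicate 2 and 648 in replicate 1. Of these, H2afj had 20 and 554. H1f0, the linker histone of non-dividing cells, had 38 reads in replicate 2 and 28 in replicate 1, Hist3h2a 3 and 48 and H2afx 3 and 11. Length-adjusted log2 ratios turned above 0 for Hist2h2aa2 (0.80), Hist1h4h (1.55), Hist1h2ao (2.68) and H2afx (1.56). They stayed below 0 for Hist2h2aa1 (-0.36), Hist1h2ap (-1.01), Hist2h2be (-1.28), H2afj (-3.15) and Hist3h2a (-3.36). Hist1h1c and H1f0 were at 3.43 and 1.19.

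Of 8 imprinted genes with a single-exon model, 6 had reads. Besides Ndn, Nap1l5 had 24 reads in replicate 2 and 26 in replicate 1, a log2 ratio of -0.12, and Mcts2 had 0 and 11. Their length-adjusted log2 ratios were 1.45 and -0.20. The HSP70 gene Hspa2, which the annotation also gives a spliced transcript, had 43 reads in replicate 2 and 37 in replicate 1 on its single-exon model, a log2 ratio of 0.21 and a length-adjusted -0.57. Ndn (3694 nt) and Sox4 (4795 nt) were long models lower in replicate 2, against the median of 0.98 and 0.92 for members of these lengths.

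**Figure D4:**
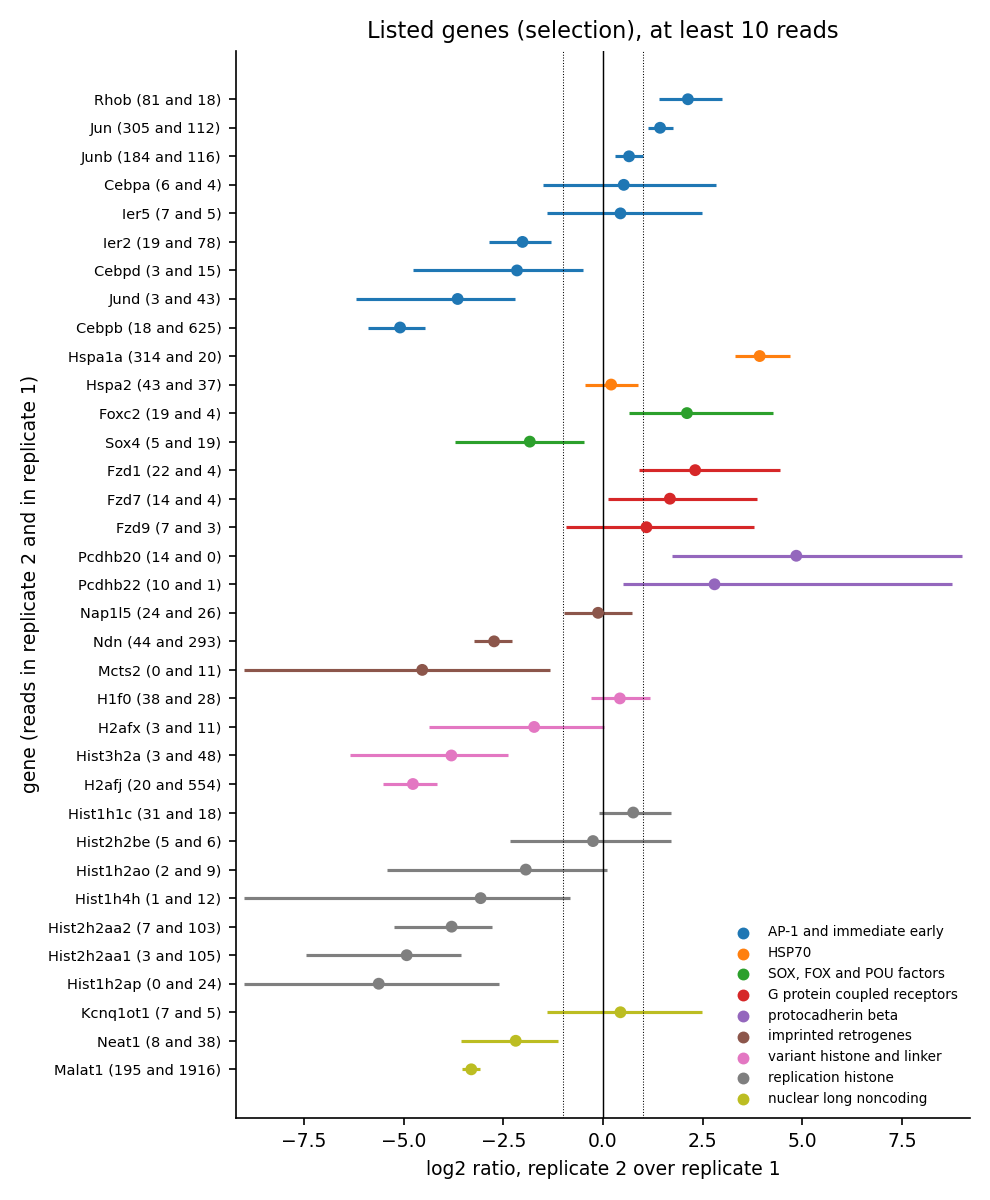
Log2 ratio of replicate 2 over replicate 1 (pseudocount of 0.5 reads) of a selection of listed genes with at least 10 reads on a single-exon model, with 95% binomial intervals as lines, ending at the axis limits where they run on, and 2-fold marked by dotted lines. The names carry the reads in replicate 2 and then in replicate 1; Hspa1a (314 and 20) lies far right and Cebpb (18 and 625) far left.

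Near-copies of spliced coding genes made up 452 of the members. A near-copy was taken as at least 90% identical over at least 80% of its length to a coding transcript of a spliced gene, a rule added after the values were seen. They came from 314 parents, with a median identity of 99.4%, and 91 were identical over the aligned part. They held 1228 reads in replicate 2, 13.2% of single-exon reads, and 16843 in replicate 1, 60.9%. Ribosomal protein genes were the parents of 168, which held 52.9% of near-copy reads in replicate 2 and 69.0% in replicate 1. Reads of a copy and its parent can be exchanged by an aligner at such identity, so counts of either are uncertain.

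Rpl10-ps3 (ENSMUSG00000058443.5, chr9:50344201-50344968, 768 nt), annotated as coding, had 62 reads in replicate 2 and 1264 in replicate 1, 20.5-fold lower in replicate 2 (15.9 to 26.9). Gm10076-202, a near-copy of Rpl41 (chr14:105681829-105682211), had 32 reads in replicate 2 and 1298 in replicate 1. Gm10123, a copy of the cyclophilin Ppia, had 32 and 928. Gm9843, a copy of Fau, had 17 reads in replicate 2 and 736 in replicate 1, Gm10243, a copy of Rpl35a, 21 and 647, and Gm7536, a copy of Rpl27a, 24 and 592. Each of these 6 models was under 800 nt long and more than 2-fold lower in replicate 2. Length-adjusted, each was within 2-fold, with log2 ratios of 0.12 for Rpl10-ps3, -0.71 for Gm10076-202, -0.23 for Gm10123, -0.78 for Gm9843, -0.33 for Gm10243 and 0.0167 for Gm7536. Copies took 7 of the 10 highest places among single-exon models in replicate 1 and 0 of 10 in replicate 2, and Malat1 was the 1 model in both lists.

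Of 140 near-copies with at least 10 reads, 2 lay past 2-fold higher in replicate 2 and 132 past it in replicate 1. Over all annotated models the shares were 38.5% and 42.1%. The median log2 of these near-copies was -3.85. Most of their parents went the same way. For the 139 copies whose parent had at least 10 reads, the median log2 was -3.88 for copies and -4.18 for parents. In these pairs the parent lay past 2-fold higher in replicate 1 in 126 and in replicate 2 in 9. The sign was shared in 128. With both sides leaning this far toward replicate 1, most signs would be shared without any link within pairs. Gapdh went against its copies in these pairs, with 16 reads in replicate 2 and 3 in replicate 1 on the spliced gene. As a parent is counted once for each copy, Gapdh makes up several of the 9. Across these 139 pairs, which share libraries, depth and in part the parent, Pearson's r was 0.39 and Spearman's rho 0.37, given as a description. With the length trend removed, the 139 copies and pseudogenes of intronless genes with at least 10 reads held 46 higher in replicate 2 and 12 in replicate 1. Over all annotated models the shares after that step were 24.4% and 26.0%.

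For 10 of the 72 parents whose copies had at least 30 reads, the copies held more reads than the parent. Gapdh is the plainest case: 13 copies held 169 reads in replicate 2 and 1390 in replicate 1, against 16 and 3 on the spliced Gapdh gene. Gm12033 had 70 reads in replicate 2 and 509 in replicate 1, Gm5559 48 and 470, Gm12671 25 and 164 and Gm13394 21 and 172. The length-adjusted log2 ratio was 1.34 for Gm12033 and 0.92 for Gm5559. Of the 13, 12 were at least 99% identical to Gapdh. The 4 copies of Rpl10 held 64 and 1278 reads beside 3 and 48 on Rpl10, and 6 copies of Rpl21 held 47 and 851 beside 5 and 28, in replicates 2 and 1. The other parents included Rpl35a, Rpl27, Rpl17, Rpl30, Rpl31 and Atp5g2, a subunit of ATP synthase.

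**Figure D5:**
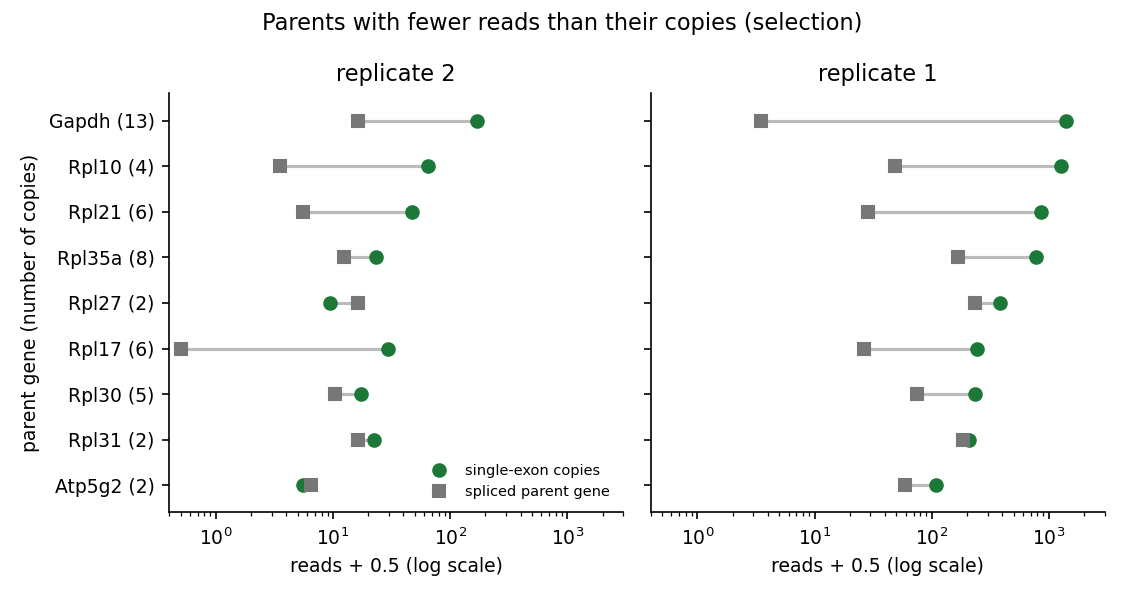
Reads (plus 0.5, log scale) of the single-exon copies summed and of their spliced parent gene, in replicate 2 on the left and replicate 1 on the right, for 9 of the 10 parents with fewer reads than their copies over both libraries. Gapdh shows 169 copy reads and 16 parent reads in replicate 2 and 1390 and 3 in replicate 1.

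Copies of mitochondrial genes formed a small set of their own. On chromosome 1, 7 unprocessed pseudogenes at least 99% identical to mitochondrial genes held 8 reads in replicate 2 and 115 in replicate 1. Gm10925 is 100% identical to mt-Atp6 over 678 nt and had 3 reads in replicate 2 and 45 in replicate 1, beside 2 and 31 on mt-Atp6. Gm28437, identical to mt-Co3, had 3 and 25 reads in replicates 2 and 1, and Gm29216, 99.8% identical to mt-Co1, 0 and 28. The length-adjusted log2 ratio was 0.80 for Gm10925, 1.58 for Gm28437 and -1.23 for Gm29216. Reads at this identity cannot be told apart from reads of the mitochondrial genes.

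Small RNA models numbered 204, with a median length of 97.5 nt, and held 1673 reads in replicate 2 and 246 in replicate 1. Gm28006 alone had 1252 reads in replicate 2 and 11 in replicate 1, 113-fold higher in replicate 2 (63.0 to 227). Without it the small RNA models held 421 reads in replicate 2, 0.0716% of the library, and 235 in replicate 1, 0.0290%. Of the 204, 160 lay within a gene on the same strand and 87 inside a host exon, and these 87 held 1524 of the 1673 reads in replicate 2 and 123 of 246 in replicate 1. Of the 15 with at least 10 reads, 12 were higher in replicate 2 and 1 in replicate 1, beside 38.5% and 42.1% of all annotated models. Their median log2 ratio was 3.16, against -3.73 over all members under 500 nt. With the length trend removed, 15 were higher in replicate 2, beside 24.4% of all annotated models, and Gm28006 was at a log2 ratio of 10.98, against 6.76. That step raises the ratio of models this short, as for Mir546 with 10 and 9 reads, from 0.14 to 4.35. It follows annotated length, so the count of 15 was largely set by the step. How long the reads on these models were was not tested.

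In its own models the Neat1 gene, whose RNA builds nuclear paraspeckles, held 54 reads (replicate 2) and 38 reads (replicate 1), fewer in replicate 2 than Gm28006 inside its exon. Mir5114 had 42 reads in replicate 2 and 2 in replicate 1, 20.9-fold higher in replicate 2 (5.43 to 178). Its host Scd2, a stearoyl-CoA desaturase, had 328 and 147 reads in replicates 2 and 1. Gm27694, in an exon of Malat1, had 23 and 1 reads, and Mir1902 and Mir5117, in exons of Hipk3 and of the snoRNA host Gas5, had 18 and 0 each, in replicates 2 and 1. Snord68, in an exon of Rpl13, had 13 reads in replicate 2 and 1 in replicate 1. Each of these reads was filed under the small RNA, although an exon of the host holds the same bases.

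Among longer noncoding models, Malat1 led with 195 reads in replicate 2 and 1916 in replicate 1. It is the abundant nuclear speckle RNA (ENSMUSG00000092341.3, chr19:5795690-5802672, 6983 nt), counted here with spliced genes because the gene also has spliced transcripts. It was 9.88-fold lower in replicate 2 (8.52 to 11.5), while 7 of 41 members of 4000 nt or more with at least 10 reads were higher in replicate 1. Its log2 ratio was -3.30 and length-adjusted -4.95. The single-exon model of Neat1 had 8 reads in replicate 2 and 38 in replicate 1. AY036118 (chr17:39847113-39848035, minus strand) had 339 reads in replicate 2 and 28 in replicate 1, 12.04-fold higher in replicate 2 (8.18 to 18.4), a log2 ratio of 3.57 and a length-adjusted 7.89. Gm42418, which covers the same interval on the plus strand, had 30 and 145. Whether strand was kept when these reads were assigned is not given in the sources used here. The opposite directions of the pair therefore cannot be read as separate transcripts. AY036118 also lies inside an exon of CT010467.1 on its own strand, a gene with 1 read in replicate 2 and 0 in replicate 1. Which of these overlapping genes its reads came from was not tested.

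2900097C17Rik had 140 reads in replicate 2 and 38 in replicate 1 on its longer model, and 49 and 1 on a model of 339 nt. The short model was 48.7-fold higher in replicate 2 (8.34 to 1963). Gm26917-202 had 57 reads in replicate 2 and 166 in replicate 1. Gm37376, which lies opposite Malat1, had 5 and 26 reads in replicates 2 and 1, and a length-adjusted log2 ratio of 2.34. The imprinted noncoding RNAs Peg13 and Kcnq1ot1 had 14 and 11 reads and 7 and 5 reads in replicates 2 and 1, within 2-fold. Length-adjusted, Peg13 was at -1.70, past 2-fold lower in replicate 2, and Kcnq1ot1 at -0.59. Of the 221 models in the class TEC, to be experimentally tested, 6 reached 10 reads.

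In spliced genes the single-exon models held 5.62% of their genes' reads in replicate 2 and 10.5% in replicate 1. Of the reads on these models, Malat1 alone had 195 of 2028 in replicate 2 and 1916 of 5323 in replicate 1. The share was far from even: 29 of 630 such genes with at least 10 reads had 90% or more of their reads on the single-exon model, and 467 had under 10%. Junb had 184 of 185 reads on it in replicate 2 and 116 of 117 in replicate 1, H2afj 20 of 20 and 554 of 560, and Smim10l1 105 of 110 and 103 of 106. Atxn7l3b had all of its 22 reads in replicate 2 and 102 in replicate 1 there, and the E3 ligase gene Rnf26 all of its 41 and 34. The log2 ratio of Smim10l1 was 0.02 and length-adjusted -1.52, past 2-fold lower in replicate 2. The lincRNA Gm42047 kept 67.8% of the gene's reads in replicate 2 and 68.4% in replicate 1 on the single-exon model, whose log2 ratio was -0.40 and length-adjusted 1.10.

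Retained-intron models, transcripts annotated with intron sequence left in, held 2.59% of their genes' reads in replicate 2 and 2.83% in replicate 1. Of 32 with at least 10 reads, 10 were higher in replicate 2 (31.25%) and 15 in replicate 1 (46.9%). These shares lie near the 38.5% and 42.1% of all annotated models. Those named here were picked after their values were seen. Pgp-202, of a phosphoglycolate phosphatase, had 17 of 54 reads of the gene in replicate 2 (31.5%) and 64 of 255 in replicate 1 (25.1%). A model of Cdip1 had 25 of 137 in replicate 2 and 14 of 130 in replicate 1. Prdx6-209, of a peroxiredoxin, had 25 of 115 in replicate 2 (21.7%) and 6 of 1018 in replicate 1 (0.589%). A model of Hsf1, the heat shock transcription factor, had 19 of 39 reads in replicate 2 and 0 of 9 in replicate 1. Tra2a-203, of a splicing factor known for regulated introns, had 12 of 27 in replicate 2 (44.4%) and 7 of 16 in replicate 1 (43.8%). The part of model length in these shares was not tested.

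The 3′ ends of the models as annotated differed by class. AATAAA, the main polyadenylation signal, lay in the last 50 nt of 55.0% of intronless coding models, 38.2% of intronless noncoding models, 18.9% of retained-intron models, 9.73% of near-copies and 0.980% of small RNA models. It lay there in 59.1% of coding models of 2 or more exons with reads. These 30-base windows carry it in capitals for leading members on mm10, at chr4:95049054-95049083 for Jun, chr17:34969190-34969219 for Hspa1a, chr2:167690376-167690405 for Cebpb and chr19:5795694-5795723 for Malat1.
Jun: gttcgttatcacAATAAAtgtattcaaata
Hspa1a: gagaaaaattaaagtcagagcaAATAAAaa
Cebpb: tgaagacattttAATAAActtttttggaga
Malat1: ttgattttatgaAATAAAaactaaatatct
The counts do not show where reads ended. In intronless genes 0 reads of either library were on unannotated single-exon models, so reads of any extent along the gene were on the annotated model.

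Overlap limits some of these counts. An exon of another gene overlapped 206 members on the same strand, which held 25.6% of single-exon reads in replicate 2 and 10.9% in replicate 1, and 376 on the opposite strand. Of all reads without a splice on nuclear genes, annotated single-exon models held 20.0% in replicate 2 and 24.0% in replicate 1. The rest were on unannotated unspliced models. The labels record separate biological replicates of 1 strain, and the spread between these libraries may be technical in part.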

How the data were processed

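Long-read RNA-seq of C57BL/6J mouse adrenal gland was available as 2 libraries of 1 group. The authors deposited whole-number read counts for each TALON transcript model, per the file headers, using the mm10 build and GENCODE M21. Exon numbers and model lengths are also as the authors deposited them. For aligner, read correction, tool versions and platform the status is: not given in the sources used here.

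Members were taken by class, exon count and chromosome. CPM used all 587861 reads of replicate 2 and 810239 of replicate 1. Folds used TMM-scaled library sizes (edgeR 4.0.16, factors 1.18 and 0.849), which were nearly equal, so a CPM ratio exceeds its fold by a constant factor. Log2 ratios used a pseudocount of 0.5 reads. A model was called past 2-fold among those with at least 10 reads over both libraries, with no p-value, because there is 1 library a side. Intervals are 95% Clopper-Pearson intervals. Intervals and floors of 3 reads cover counting error only. Near-copies were found with megablast (BLAST 2.17.0) for models of at least 150 nt on the same strand. Median-of-ratios factors came from DESeq2 1.42.0. The folds and calls were tested on simulated counts with set folds and counting error only. These held no length trend and no other spread between libraries, so the rules were not tested under either. Named models were the 10 highest of intronless and of spliced genes, the 8 largest folds each way with at least 30 reads, listed genes with at least 10 reads, and the leading 3 of each gene biotype; some are given only by count. Other names were chosen after their values were seen. Members, lists and rules were chosen with earlier results of these data known. Some listed genes and parents are not reported here.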

Additional observations from a re-analysis of the deposited data

Results flagged for a closer look

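Reads with a splice appeared in genes annotated as intronless, outside the counts of the single-exon models. Such models of 2 or more exons held 122 reads in 33 intronless genes in replicate 2 and 79 reads in 30 in replicate 1. Those above the 3 reads that a count of 0 allows in at least 1 library are listed. There were no control samples to set them against. Mir6358 had 44 spliced reads in replicate 2 and 18 in replicate 1, beside 1 and 3 on its own model. Dnajc30, a chaperone relative of mitochondria, had 16 and 2, beside 5 and 37 unspliced. Gm49727 had 12 spliced reads in replicate 2 and 4 in replicate 1, and Gas1, a membrane protein of hedgehog signalling, 5 and 1, beside 104 and 18 unspliced. Jun had 4 and 2, beside 305 and 112 unspliced reads, and Tspyl1 3 and 4, beside 167 and 84. Fndc10 had 1 and 9, Gm11847 1 and 4 and Gm7389 4 and 1 in replicates 2 and 1. Gm6969 had 0 and 5 spliced reads, and Gm13292 and Gm5776 had 0 and 4 each. What these reads come from was not tested.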

How the results depend on the processing

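The mean share on single-exon models lay between 2.40% and 3.38% under 3 other ways to count, against 2.49%. Of the motifs, TGACGTCA moved most with at least 10 reads, to 6.98%, against 4.38%. With 2 libraries, leaving out 1 gives the other's own value and says nothing about stability. Without replicate 1 the share on single-exon models was 1.58% and without replicate 2 it was 3.41%. The corresponding ranges were 1.23% to 2.75% for intronless genes, 0.345% to 0.657% for spliced genes and 5.62% to 10.5% of gene reads. Counts of models past 2-fold moved, and the filters changed how many models were counted. Higher in replicate 2 were 39 of 239 with at least 20 reads and 643 of 2159 with no filter. With the length trend removed 117 of 367 were, against 74 of 367. The matching shares of all annotated models were 37.1%, 39.5%, 24.4% and 38.5%. Higher in replicate 1, there were 1210 of 2159 with no filter and 94 of 367 with the length trend removed, against 231 of 367. For these the shares of all annotated models were 43.2%, 26.0% and 42.1%. With library totals in place of TMM the median of all models was 0.32, against -0.15, with 89 and 225 calls. The share of calls higher in replicate 2 was 55.5% with the length trend removed, against 24.3%.

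Removing the length trend changed the sign of the log2 ratio of 26 of 88 named models. Of the 71 past 2-fold, 44 stayed past it in the same direction, 20 came within it and 7 lay past it in the other direction. Of those within 2-fold, 13 went past it. The ratios that changed sign with a value past 2-fold before or after were those of Fzd7 (-0.40), Gm10925 (0.80), Gm12033 (1.34), Gm15500 (1.70), Gm15501 (0.84), Gm28437 (1.58), Gm37376 (2.34), Gm42047 (1.10), Gm45731 (3.41), Gm49708 (0.17), Gm5559 (0.92), Gm7536 (0.0167), H2afx (1.56), Hist1h2ao (2.68), Hist1h4h (1.55), Hist2h2aa2 (0.80), Ier2 (0.79), Ier5 (-1.67), Jun (-0.61), Nap1l5 (1.45), Peg13 (-1.70), Rpl10-ps3 (0.12) and Smim10l1 (-1.52). The 3 others, Cebpa (-0.52), Hspa2 (-0.57) and Kcnq1ot1 (-0.59), were within 2-fold in both. Library totals changed 5 signs, all within 2-fold. A pseudocount of 1 read took 3 within 2-fold and library totals 3 past it. Near-copies at 95% and 98% identity, levels chosen after seeing the data, held 36.9% and 36.4% of single-exon reads (mean of both), against 37.1%. No paired analysis was possible because there is 1 group.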
